A study of Mus musculus with 6 samples.

Results

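The 9 genes described here code for the Abi adaptors and the WAVE regulatory complex: Abi1, Abi2, Abi3, Wasf1, Wasf2, Wasf3, Brk1, Cyfip1 and Nckap1, out of 24346 gene symbols measured. They were picked by symbol, as a family and its complex partners, with the FP and RR values of Abi3 already known. Differences between FP and RR, their intervals and any count of calls are therefore given for the members as a description only. Expression was measured by RNA-seq in 6 libraries, 3 coded FP (11, 14 and 16) and 3 coded RR (11, 14 and 16). All came from laser-microdissected cartilage of the mouse cranial base, and the series text sets flat against round chondrocytes from the spheno-occipital synchondrosis, a cartilage where the skull base grows. No label spells out the codes, so they are kept. All 6 libraries, FP and RR alike, came from Gli1CreERT2 mice, in which Gli1-expressing cells make a tamoxifen-inducible Cre, with a Tomato flox reporter and tamoxifen given on postnatal day 3. The sources used here give neither the age at collection nor whether the libraries came from separate animals, so errors and p-values describe only how far these samples spread, and that spread may be technical.

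The WAVE complex links Rac signalling to branched actin. It is built from a Cyfip protein, a Nckap protein, an Abi protein, a WAVE protein (gene symbol Wasf) and the small subunit Brk1, and it is inactive until Rac binds Cyfip. The freed end of the WAVE protein then switches on the Arp2/3 complex, which starts new filaments on the side of old ones and drives flat protrusions called lamellipodia. Actin organization is known to accompany chondrocyte shape and differentiation.

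Values are FPKM, fragments scaled to transcript length and to the fragments of the library, as deposited by the authors, and levels of different genes are compared on this length-corrected scale. From the steps between low values, 1 fragment on a 2000-base transcript stood for 0.128 to 0.254 FPKM in the FP libraries and 0.175 to 0.299 FPKM in the RR libraries, with number 14 the shallowest of each group. The total number of fragments is unknown. RR 14 stood apart from the other libraries on the first principal component, at 76.9, with the other RR libraries at 9.11 and 19.5 and the FP libraries between -38.5 and -32.3. All 8 chondrocyte markers examined (Col2a1, Acan, Sox9, Col9a1, Col11a1, Matn1, Matn3 and Hapln1) were above 0 in every library, with a summed level of 49038 to 82274 FPKM in FP and 42789 to 88277 FPKM in RR. Between the groups, 0 of the 8 were called by limma, against 0.967% of all tested genes. All 8 were estimated higher in FP (median log2 difference 0.91), and 4 of 8 had FP wholly above RR, against 8.74% of all tested genes.

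The member with the largest difference, Abi3, sits in a crowded place. In the mm10 annotation (GENCODE M21) Abi3 lies on the minus strand of chromosome 11, at 95830074 to 95842476. Phospho1, the gene of a phosphatase that starts mineral formation in matrix vesicles of hypertrophic chondrocytes, lies on the plus strand at 95824499 to 95832140, and the genes meet tail to tail. The Abi3 transcript is 4006 bases long, of which 2639 follow its stop codon. The last and longest of the 3 Phospho1 exons, 1590 bases at 95830551 to 95832140, lies wholly inside that stretch. It makes up 83.2% of the Phospho1 transcript and 39.7% of the Abi3 transcript, and it holds 759 of the coding bases of Phospho1. The last 30 coding bases of each gene are shown because they mark the ends of the facing reading frames, with the stop codon in capitals and each read 5′ to 3′ on its own strand (from the GENCODE M21 transcripts, at chr11:95832713-95832742 on the minus strand for Abi3 and chr11:95831280-95831309 on the plus strand for Phospho1).
Abi3: ccagggaactatgtggagcccagctgcTGA
Phospho1: catctgcaacaggtgctgaagatgtgtTGA
The reverse complement of the Phospho1 stretch is found in the Abi3 transcript at bases 2771 to 2800, whereas the Abi3 reading frame ends at base 1367. Reads from these 1590 bases could belong to either gene. The library kit keeps strand, per the labels, but the sources used here do not say whether strand was used in counting, and without it reads from these shared bases cannot be told apart. The Abi3 reading frame lies outside them, but the deposited values are given per gene and not by position.

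**Figure D1:**
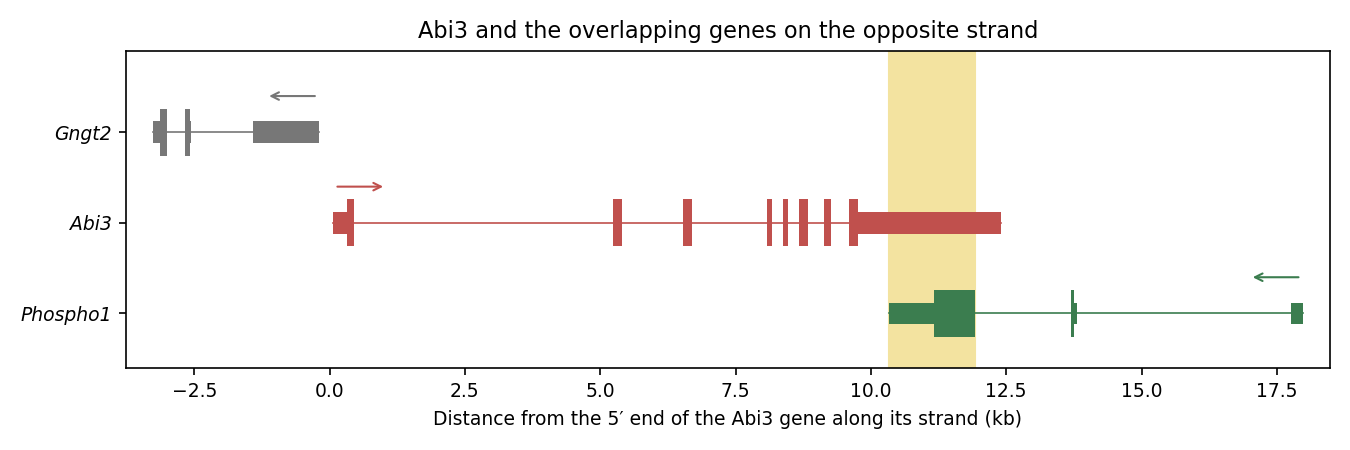
Exon models of Gngt2, Abi3 and Phospho1 (longest basic transcript of each) by distance in kb from the 5′ end of the Abi3 gene along its strand; tall boxes are coding, low boxes untranslated, and arrows give the direction of transcription. The shaded band is the last Phospho1 exon of 1590 bases, which falls within the long untranslated end of Abi3. The Gngt2 transcript drawn does not reach Abi3; the 137 shared bases belong to another of its transcripts.

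Abi3, an SH3-domain adaptor of the Abi family, was at 44.5, 54.1 and 62.1 FPKM in FP libraries 11, 14 and 16, against 2.11, 0.306 and 5.69 FPKM in RR libraries 11, 14 and 16. Each FP value lay above each RR value, and RR 14 was the lowest of all. On the longest transcript these levels came to about 695, 426 and 665 fragments in FP libraries and 21.7, 2.05 and 64.9 fragments in RR libraries. The mean was 53.6 ± 8.81 FPKM in FP and 2.70 ± 2.74 FPKM in RR (SD, n = 3 each), a 19.8-fold ratio of means. That ratio was 44.3 without RR 16 and 13.7 without RR 14, and 17.9 to 21.5 without any other single library. On the log2(FPKM + 1) scale, which understates changes of low genes, the FP minus RR difference was 4.17 ± 0.53 (SE). It was 3.87, 5.40 and 3.24 for libraries 11, 14 and 16 taken by number. By the threshold used across the whole table (limma, adjusted p under 0.05), 1 of 9 members, Abi3, was called, against 0.967% of the 14789 tested genes (0.554% higher and 0.412% lower in FP). The members were drawn up with this contrast in view, so that count is no test of them and nothing is read from it. Without FP 16 it was 0.

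Phospho1, on the other strand, was at 14.6, 11.3 and 11.8 FPKM in FP libraries 11, 14 and 16, against 0.821, 0 and 1.29 FPKM in RR libraries 11, 14 and 16. It followed the order of Abi3 between the groups, with FP wholly above RR (log2 difference 3.06 ± 0.35, limma adjusted p = 0.00764, higher in 3 of 3 FP libraries). Phospho1 averaged 0.704 FPKM in RR, so it reached the mean of 1 FPKM required for testing through its FP values. The ratio of Abi3 to Phospho1 FPKM was 3.05, 4.81 and 5.28 in FP libraries 11, 14 and 16, against 2.57 in RR 11 and 4.41 in RR 16, with Phospho1 listed at 0 in RR 14. The Phospho1 values rested on about 108.5, 42.3 and 60.1 fragments in FP libraries, against 4.03, 0 and 7.02 fragments in RR libraries, so the RR ratios come from few fragments. Gngt2 is a G protein gamma subunit gene on the plus strand with 137 exon bases shared with Abi3. It was at 1.96, 3.69 and 1.86 FPKM in FP libraries, against 0.951, 0 and 0 FPKM in RR libraries (limma adjusted p = 0.274). With a mean of 0.317 FPKM in RR, Gngt2 too was tested through its FP values. Zfp652, a zinc finger gene on the plus strand whose span but no exon overlaps Abi3, was at 34.5 ± 3.51 FPKM in FP and 25.6 ± 2.41 FPKM in RR (SD, n = 3 each, limma adjusted p = 0.651). Of the other genes within 50 kb, B4galnt2, a glycosyltransferase gene, had overlapping groups, at 0.653, 0.825 and 1.73 FPKM in FP and 0.903, 2.89 and 1.62 FPKM in RR, and so had 4833417C18Rik.

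The arrangement at Abi3 was set beside other opposite-strand pairs. In the annotation, 468 pairs of tested genes shared at least 200 exon bases on opposite strands. Of the 913 genes in these pairs 9 were called, against 0.967% of all tested genes. A called gene was in 7 of the pairs, and both partners were called in 2 of them, Abi3 with Phospho1 and C1qtnf1 with Gm11747. In 7 of the 7 pairs the estimates of both partners had the same sign, and signs in the remaining pairs were not counted. Some partners that were not called had small log2 differences, such as -0.32, so nothing is read from that count. Unlike Abi3 and Phospho1, C1qtnf1 and Gm11747 were both lower in FP (log2 differences of -1.97 and -2.61). These pairs were looked up after the Abi3 values had been seen. Whether reads were shared between partners was not tested.

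The other Abi genes did not show this pattern. Abi1, a core WAVE complex adaptor that also joins Eps8 and Sos1 signalling to Rac, was at 8.31, 4.21 and 5.40 FPKM in FP libraries 11, 14 and 16, against 6.63, 4.71 and 3.24 FPKM in RR libraries 11, 14 and 16. Abi2, its close relative, was at 6.75, 2.96 and 3.52 FPKM in FP libraries, against 5.36, 2.97 and 3.504 FPKM in RR libraries. In both genes the groups overlapped, and library 11 was the highest of each group. The log2 differences were 0.25 (95% interval -0.51 to 1.01) for Abi1 and 0.09 (-0.69 to 0.88) for Abi2. Of the summed Abi FPKM, Abi3 made up 74.7%, 88.3% and 87.4% in FP libraries, against 15.0%, 3.83% and 45.8% in RR libraries. The sum itself was 64.0 ± 6.18 FPKM in FP and 11.5 ± 3.17 FPKM in RR, while Abi1 and Abi2 together came to 10.4 ± 4.14 FPKM in FP and 8.81 ± 2.801 FPKM in RR (SD, n = 3 each). These shares carry the same limit as Abi3 itself, since they take all its fragments as its own.

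**Figure D2:**
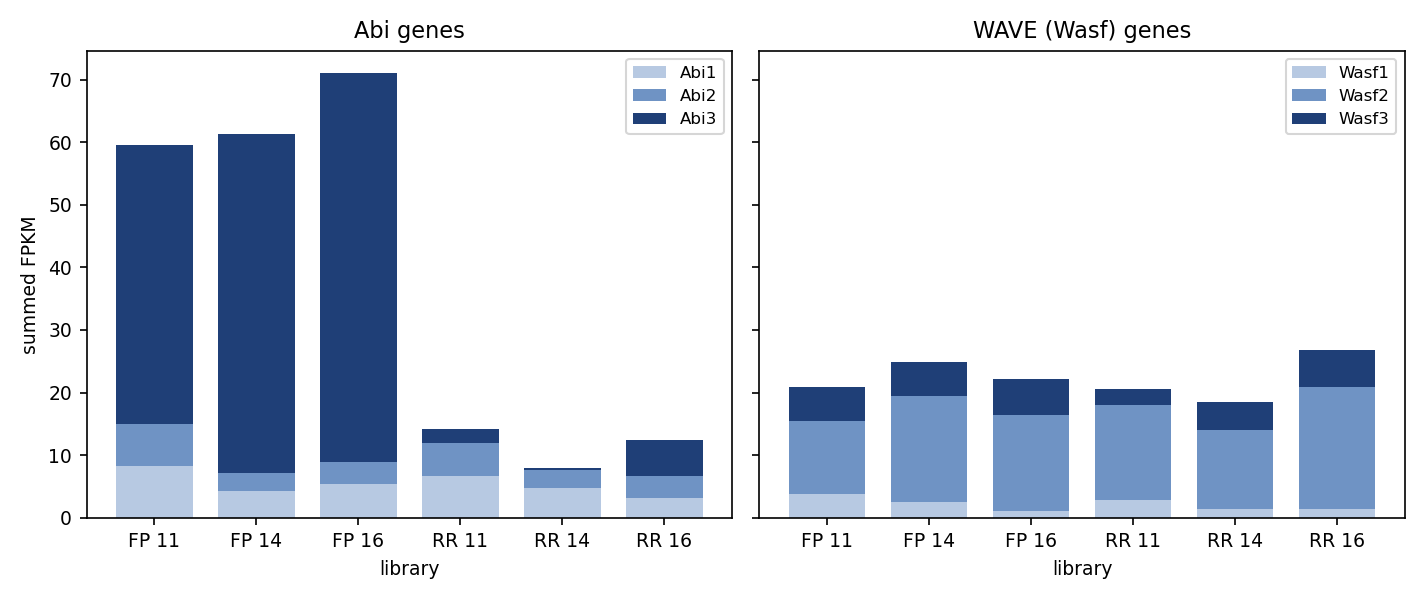
Stacked FPKM of the Abi genes (left) and of the WAVE genes (right) in each library, FP libraries first. The Abi sum is 59.6 to 71.0 FPKM in FP, most of it Abi3, and 7.98 to 14.1 FPKM in RR, while the WAVE sums of FP and RR libraries overlap.

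WAVE proteins carry the end that activates the Arp2/3 complex. Wasf2, the widely expressed WAVE gene, was at 11.7, 17.0 and 15.3 FPKM in FP libraries 11, 14 and 16, against 15.3, 12.6 and 19.4 FPKM in RR libraries 11, 14 and 16. Wasf3 was at 5.48, 5.35 and 5.80 FPKM in FP libraries, against 2.54, 4.51 and 5.96 FPKM in RR libraries. Wasf1, best known from neurons, was at 3.73, 2.54 and 1.14 FPKM in FP libraries, against 2.84, 1.36 and 1.47 FPKM in RR libraries. The groups overlapped in all 3 genes, and the RR range of Wasf3 was wide enough to take in its narrow FP range. The log2 differences were -0.10 (95% interval -0.72 to 0.53) for Wasf2, 0.35 (-0.35 to 1.05) for Wasf3 and 0.22 (-0.67 to 1.12) for Wasf1. Wasf2 supplied most of the WAVE FPKM in every library, 64.3% ± 7.26 in FP and 71.5% ± 2.93 in RR, followed by Wasf3 at 24.6% ± 2.69 in FP libraries and 19.6% ± 6.42 in RR libraries (SD, n = 3 each). The WAVE sum was 22.7 ± 2.02 FPKM in FP and 22.01 ± 4.35 FPKM in RR.

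The remaining subunits form the scaffold. Cyfip1, which binds Rac, was at 4.89, 4.97 and 4.28 FPKM in FP libraries 11, 14 and 16, against 4.65, 4.34 and 2.46 FPKM in RR libraries 11, 14 and 16. Nckap1, which pairs with Cyfip, was at 19.9, 7.22 and 8.97 FPKM in FP libraries, against 12.5, 5.59 and 12.9 FPKM in RR libraries. Brk1, the smallest subunit, was at 18.8, 9.23 and 18.01 FPKM in FP libraries, against 17.7, 10.8 and 16.2 FPKM in RR libraries. The groups of each overlapped, and the values of Nckap1 and Brk1 were lowest in library 14 of both groups. The log2 differences were 0.28 (95% interval -0.37 to 0.93) for Cyfip1, 0.16 (-0.83 to 1.15) for Nckap1 and 0.01 (-0.77 to 0.79) for Brk1. For Brk1, with 3 exons and 1095 bases, about 19.7 to 80.4 fragments lay behind a value. Over the 8 members other than Abi3 the range was 6.21 to 357 fragments, the lowest being Wasf1 in RR 14.

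**Figure D3:**
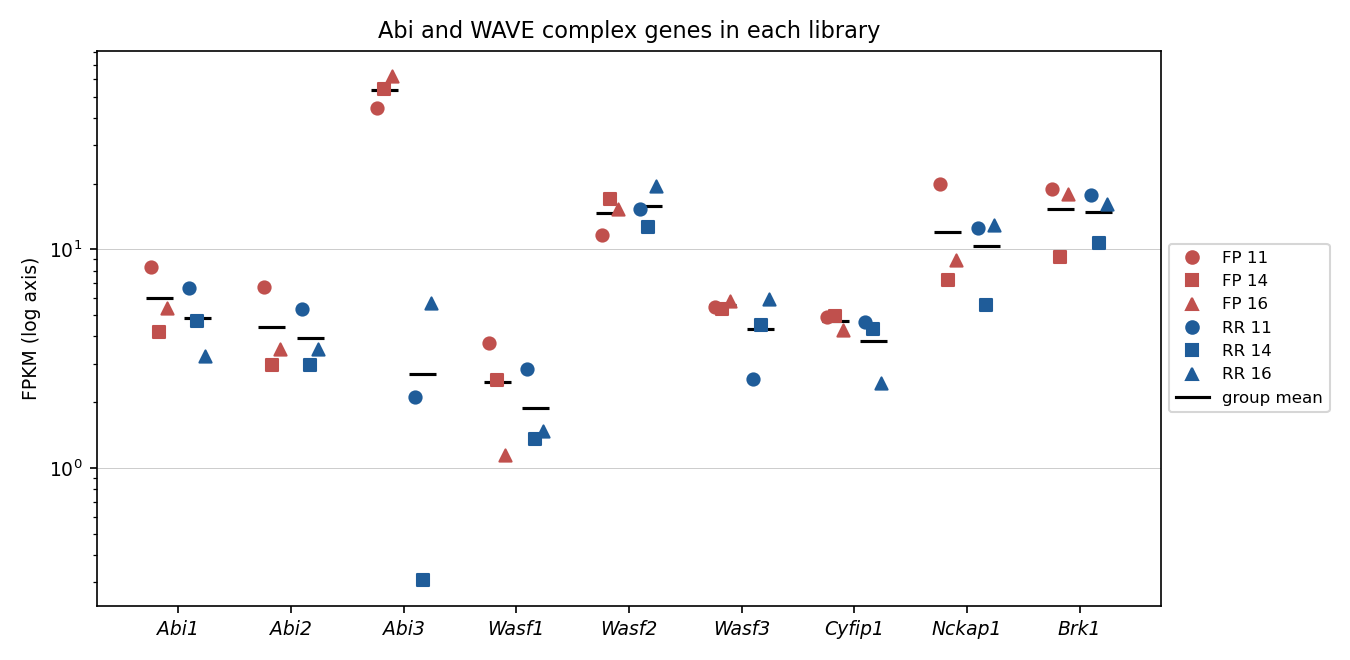
FPKM on a log axis of each member in each library, FP to the left of RR, with symbols for the library number and lines at the group means. Abi3 has all FP values at 44.5 FPKM or more and all RR values at 5.69 FPKM or less, while the groups of the other 8 genes overlap.

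Among the 8 members other than Abi3, the groups overlapped in 8 of 8. Of all tested genes, 16% had groups that did not overlap (8.74% with FP above and 7.28% with FP below). In so few genes a count of 0 is near that share, and nothing is read from it. The log2 differences of the 8 members ran from -0.10 to 0.35 with a median of 0.19, next to a median of 0.02 over all tested genes. The 95% intervals of these 8 genes lay between -0.83 and 1.15, both limits being those of Nckap1. Ratios of mean FPKM ran from 0.928 to 1.31 for these genes. All 9 members reached the level required for testing, a mean of 1 FPKM, and none of their 54 values was 0.

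**Figure D4:**
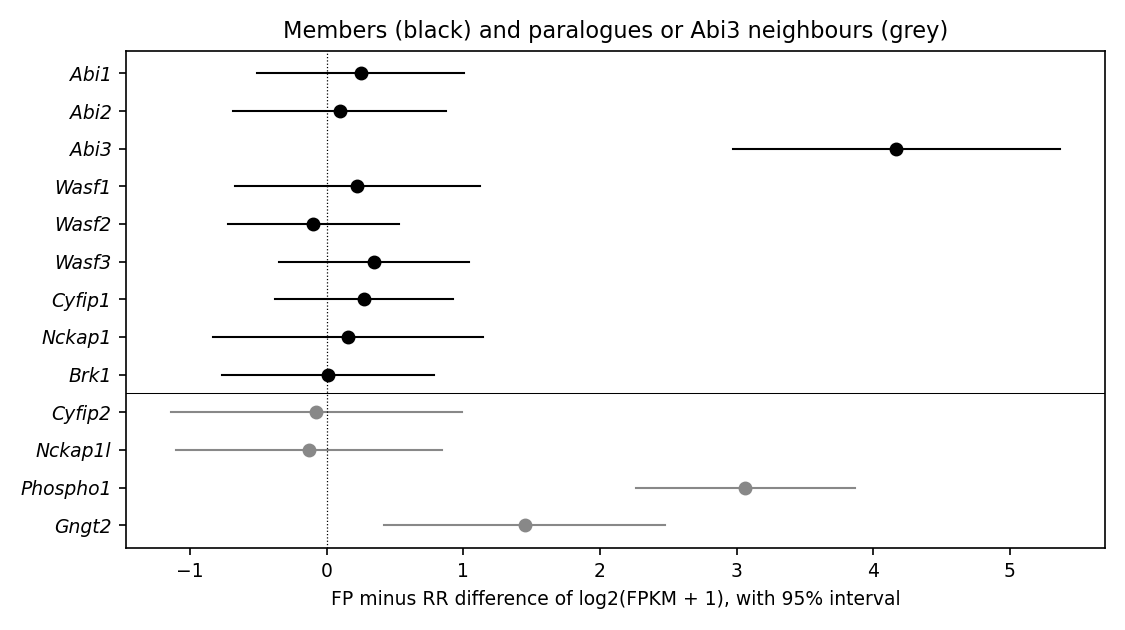
FP minus RR differences of log2(FPKM + 1) with 95% intervals from limma for the 9 members (black) and for paralogues and Abi3 neighbours (grey). The 8 members other than Abi3 lie between -0.10 and 0.35, Abi3 lies at 4.17 and Phospho1 at 3.06.

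By level, the order in FP was Abi3, Brk1, Wasf2, Nckap1, Abi1, Wasf3, Cyfip1, Abi2 and Wasf1. In RR it was Wasf2, Brk1, Nckap1, Abi1, Wasf3, Abi2, Cyfip1, Abi3 and Wasf1. In RR each neighbour in this order overlapped the next. In FP the ranges separated between Abi3 and Brk1 and between Wasf3 and Cyfip1, and all other neighbours overlapped. Leaving Abi3 aside, Wasf2, Brk1 and Nckap1 were the highest genes of both groups and Wasf1 the lowest.

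The complex can also be built with the paralogues Cyfip2 and Nckap1l, of which Nckap1l is known as the blood-cell form of Nckap1. Cyfip2 was at 2.47, 3.94 and 2.41 FPKM in FP libraries 11, 14 and 16, against 5.65, 4.33 and 0.934 FPKM in RR libraries (limma adjusted p = 0.982). Nckap1l was at 1.38, 0.507 and 1.11 FPKM in FP libraries, against 1.94, 0.591 and 1.12 FPKM in RR libraries (limma adjusted p = 0.965). Nckap1 made up 92.0% ± 2.61 of the Nckap sum in FP libraries and 89.7% ± 2.84 in RR libraries, while the share of Cyfip1 in the Cyfip sum was 62.1% ± 5.59 in FP libraries and 55.9% ± 14.6 in RR libraries (SD, n = 3 each). Summed by subunit, Nckap genes stood at 13.0 ± 7.24 FPKM in FP and 11.6 ± 4.66 FPKM in RR, and Cyfip genes at 7.65 ± 1.14 FPKM in FP and 7.45 ± 3.61 FPKM in RR.

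On mm10, Abi1 lies on chromosome 2 (22940073 to 23040241, minus strand), Abi2 on chromosome 1 (60409619 to 60481158, plus strand) and Nckap1 on chromosome 2 (80500512 to 80581380, minus strand). Wasf1 lies on chromosome 10 (40883475 to 40938570), Wasf2 on chromosome 4 (133130505 to 133199756), Wasf3 on chromosome 5 (146384985 to 146473615), Brk1 on chromosome 6 (113604772 to 113616951) and Cyfip1 on chromosome 7 (55841745 to 55932602), all on the plus strand. Besides Abi3, Cyfip1 and Abi1 share exon bases with a gene on the opposite strand. Cyfip1 shares 1316 bases with Nipa2, a magnesium transporter gene at 2.29 ± 1.32 FPKM in FP and 1.32 ± 0.182 FPKM in RR (SD, n = 3 each), which is 19.8% of its exon bases. Abi1 shares 194 bases with Pdss1, an enzyme gene of ubiquinone synthesis at 1.60 ± 1.27 FPKM in FP and 0.631 ± 0.1299 FPKM in RR. Both partners had overlapping groups. A microRNA gene inside Wasf2, Mir7017, was listed at 0 in all libraries.

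Variation between the library numbers is a measure that the FP and RR difference does not enter. In a limma fit with group and number, 0 of the 9 members passed the test for library number (adjusted p between 0.230 and 0.704). Of all tested genes, 0.169% passed it. Unadjusted p was under 0.05 for 3 of the 9, Brk1, Nckap1 and Abi2 (limma adjusted p of 0.230, 0.238 and 0.280), and for 17.6% of all tested genes. Nckap1 averaged 16.2 FPKM in the libraries numbered 11, 6.40 in those numbered 14 and 10.95 in those numbered 16. Brk1 averaged 18.3 FPKM in libraries 11, 9.99 in libraries 14 and 17.1 in libraries 16. Libraries 14 were the shallowest of each group by the worth of 1 fragment, and the part of depth in these values was not tested.

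Further along the pathway, 99 genes of actin assembly in 8 lists were examined, of which 89 reached the level for testing. None was called by limma in either direction, against 0.967% of all tested genes, and 9 of 89 (10.1%) had an unadjusted p under 0.05, against 10.3% of all tested genes. The groups did not overlap for 18 of the 89 (20.2%), 11 with FP above and 7 with FP below, against 16% of all tested genes. The median log2 difference was 0.08. Estimates in these lists ran from -1.68 to 1.36, against 4.17 for Abi3.

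The Arp2/3 complex itself, which WAVE proteins activate, had 0 of 10 subunit genes called, against 0.967% of all tested genes. In so few genes nothing is read from that count. Of the 10, 8 were estimated higher in FP, with a median log2 difference of 0.35, next to 0.02 over all tested genes. Arpc1b was at 27.9, 60.8 and 64.8 FPKM in FP libraries 11, 14 and 16, against 17.2, 16.6 and 34.3 FPKM in RR libraries (limma adjusted p = 0.377), with FP 11 inside the RR range. Arpc5 was at 22.7 ± 8.16 FPKM in FP and 14.1 ± 7.26 FPKM in RR (SD, n = 3 each, adjusted p = 0.661 in limma). Of the 12 tested genes among other activators and their partners, Hcls1, the blood-cell relative of cortactin, was at 1.38 ± 0.237 FPKM in FP and 2.50 ± 0.411 FPKM in RR (limma adjusted p = 0.624), and Wasl, which codes for N-WASP, at 22.7 ± 9.15 FPKM in FP and 16.1 ± 7.26 FPKM in RR (limma adjusted p = 0.766).

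Among 13 genes of proteins that bind Abi or WAVE proteins, Abi3bp, the gene of a secreted protein named for binding Abi3, was at 3.88, 2.36 and 1.001 FPKM in FP libraries 11, 14 and 16, against 13.99, 8.89 and 6.32 FPKM in RR libraries. All FP values lay below all RR values, the reverse of Abi3, with a log2 difference of -1.68 ± 0.40 that did not pass (limma adjusted p = 0.137, and 0.0196 with a replicate block by library number). Baiap2l1, of the IRSp53 family of membrane-bending proteins, was at 5.40 ± 1.58 FPKM in FP and 1.79 ± 0.738 FPKM in RR (SD, n = 3 each, adjusted p = 0.191 in limma). Of 17 tested Rac GTPases and exchange factors, Tiam2, a Rac exchange factor, was at 17.2, 33.8 and 19.0 FPKM in FP libraries, against 7.03, 8.72 and 8.60 FPKM in RR libraries. The groups of Tiam2 did not overlap (log2 difference 1.36 ± 0.31, limma adjusted p = 0.116, and 0.0478 with the replicate block). Prex1, another Rac exchange factor, was at 19.2 ± 3.62 FPKM in FP and 10.98 ± 3.90 FPKM in RR (limma adjusted p = 0.416).

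Of 9 tested inhibitors of the Arp2/3 complex and branch-removing factors, Coro1a, the coronin of blood cells, was at 0.633, 0.314 and 0.460 FPKM in FP libraries 11, 14 and 16, against 4.31, 3.30 and 2.59 FPKM in RR libraries (log2 difference -1.57 ± 0.34, limma adjusted p = 0.0952, and 0.0873 with the replicate block). All 3 FP values lay below the RR values. Gmfg, of the glia maturation factor family, was at 2.44 ± 2.11 FPKM in FP and 6.85 ± 4.15 FPKM in RR (SD, n = 3 each, adjusted p = 0.550 in limma). Among 11 tested formins and spire genes, Daam2, a formin of Wnt signalling, was at 21.0 ± 0.868 FPKM in FP and 46.0 ± 7.60 FPKM in RR. Its groups did not overlap (limma adjusted p = 0.117, 0.0588 with the replicate block and 0.0312 after quantile normalization). Diap3, a formin that elongates straight filaments, was at 8.36 ± 0.655 FPKM in FP and 4.90 ± 1.28 FPKM in RR (limma adjusted p = 0.414). In the 15 tested genes of actin turnover, Gsn, the gelsolin severing protein, was at 53.5 ± 3.73 FPKM in FP and 84.9 ± 22.5 FPKM in RR (limma adjusted p = 0.496). Tmsb10, a thymosin that holds actin monomers, was at 229 ± 13.0 FPKM in FP and 157 ± 8.75 FPKM in RR (limma adjusted p = 0.532).

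**Figure D5:**
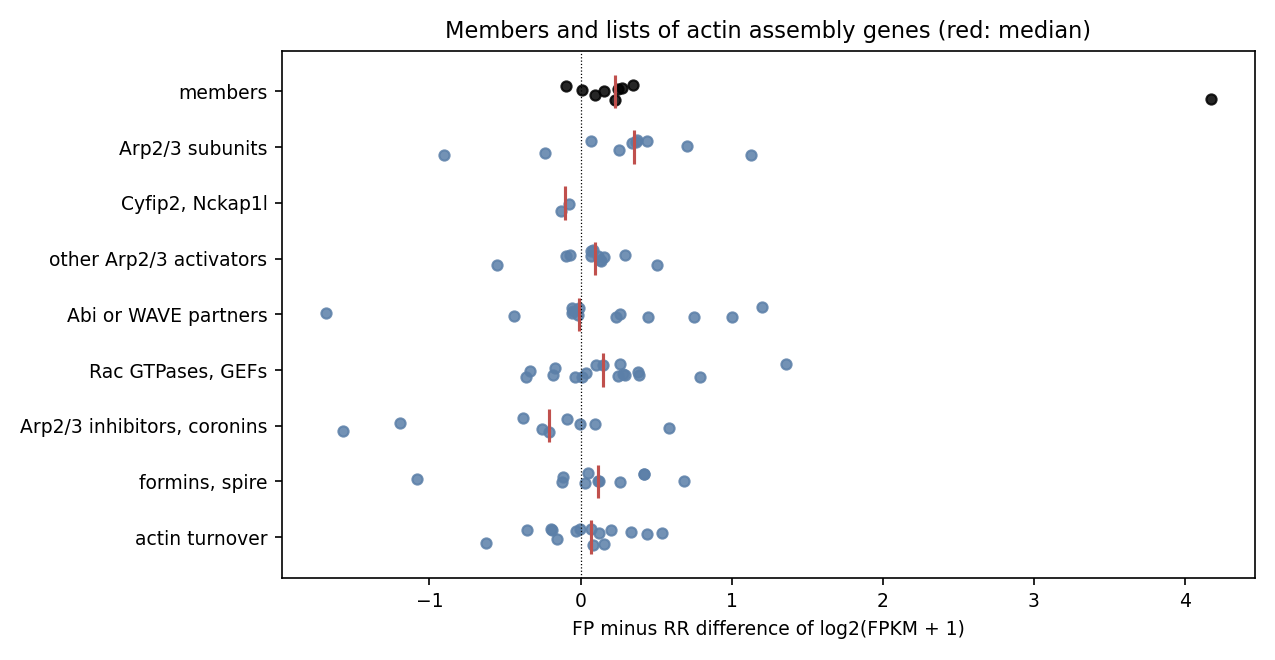
FP minus RR differences of log2(FPKM + 1) of the members (black) and of the tested genes in 8 lists of actin assembly genes (blue), 1 point a gene, with list medians as red bars. Abi3, at 4.17, is the point at the far right, and the listed genes lie between -1.68 and 1.36.

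Abi3 is known from leukocytes and microglia as well, and markers of other cells were read beside it. In bulk samples, fewer cells of a type and less RNA per cell cannot be told apart. Of the 12 leukocyte and macrophage markers, 11 were tested and 0 called by limma, against 0.967% of all tested genes. Unadjusted p was under 0.05 for 0 of the 11, against 10.3% of all tested genes. Of the 11, 3 were estimated higher in FP (median log2 difference -0.36). FP was wholly below RR for 1 of the 11, against 7.28% of all tested genes. The summed level of the 12 was 18.6 to 29.9 FPKM in FP and 21.96 to 50.9 FPKM in RR, and 5 of the 12 were at 0 in some library. Ptprc, the 1 marker of the 12 that averaged too low to be tested (0.763 FPKM), was at 0.556, 1.197 and 0.337 FPKM in FP libraries 11, 14 and 16, against 1.83, 0.214 and 0.443 FPKM in RR libraries. Osteoclast markers summed to 13.7 to 117 FPKM in FP and 21.0 to 128 FPKM in RR, and endothelial markers to 8.85 to 17.1 FPKM in FP and 7.98 to 26.8 FPKM in RR. In each of these lists 0 of 7 tested markers were called, against 0.967% of all tested genes. In each, 1 of the 7 was estimated higher in FP (median log2 differences of -0.11 and -0.16). Markers of red blood cells, osteoblasts and nerve tissue had 0 called of 3, 7 and 8 tested, against 0.967% of all tested genes, and overlapping sums. Of these, 3, 4 and 6 were estimated higher in FP (median log2 differences of 0.38, 0.24 and 0.03). The 10 skeletal muscle markers summed to 136 to 230 FPKM in FP and 32.6 to 194 FPKM in RR, with 0 called. All 10 were estimated higher in FP (median log2 difference 1.53), and 5 of 10 had an unadjusted p under 0.05 against 10.3% of all tested genes. In 2 of 10, Actn3 and Myh4, FP was wholly above RR, against 8.74% of all tested genes. Actn3 averaged 0.502 FPKM in RR, so it reached the level for testing through its FP values. The part of these other cells in the Abi3 values was not tested.

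Of 10 markers of prehypertrophic and hypertrophic chondrocytes, 7 were called higher in FP by limma, against 0.554% of all tested genes, and the summed level of the 10 was 1112 to 1372 FPKM in FP and 132 to 200 FPKM in RR. Mef2c and Ibsp, with FP wholly above RR, did not pass (limma adjusted p of 0.112 and 0.0571), and Mmp13 had overlapping groups (log2 difference -0.10 ± 0.90, limma adjusted p = 0.989). Phospho1 is itself on this list and among the 7 called. It averaged 0.704 FPKM in RR, so it reached the level for testing through its FP values. It also shares 1590 exon bases with Abi3, so it is no separate reading beside Abi3. The part of these cells in the Abi3 values was not tested.

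The genes with profiles most like that of Abi3 over the 6 libraries were found from the root mean square difference of centred log2(FPKM + 1) values, among 6283 protein-coding genes averaging 5 FPKM or more. They were Smim5, a small membrane protein gene (0.37), Il17b, a cytokine gene (0.38), Smpd3, a neutral sphingomyelinase gene (0.48), Ihh, the Indian hedgehog ligand (0.51), and Fxyd2, a sodium pump regulator (0.60). Phospho1 came at rank 9 (0.69). Smim5 was at 21.9, 26.7 and 32.7 FPKM in FP libraries 11, 14 and 16, against 2.13 FPKM in RR 16 and a listed 0 in RR 11 and RR 14. Smim5, Ihh and Phospho1 averaged 0.711, 2.15 and 0.704 FPKM in RR, so they reached 5 FPKM through their FP values. Wasf2 was most like Aff1 (0.05), Nrip1, Rptor, Hddc2 and R3hdm4, and Nckap1 most like Rnf14 (0.10), Timm23, Ipo5, Rpl27 and Tmed3. These lists are descriptions, since likeness over 6 libraries of 2 groups follows any difference between the groups, and in the case of Nckap1 the low libraries 14.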

How the data were processed

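The authors deposited 1 table per library with an FPKM value for each of 24346 symbols, per the file headers. The submitters' processing notes name Cuffdiff 2.2.1, SAMtools 0.1.18, TopHat2 2.1.1 and Bowtie2 2.2.8, and build mm10. The sources used here give no annotation, strand setting or scaling between libraries. Groups are the title codes, 3 libraries each. The deposited FPKM were put on the log2(FPKM + 1) scale and compared, FP minus RR and two-sided, by limma 3.58.1 (R 4.3.3, intensity trend) in the 14789 genes averaging 1 FPKM or more, with Benjamini-Hochberg adjustment over all of them and 0.05 as threshold. The same model with a library number term gave the F-test for number. Fragment steps used 3524 genes with a single transcript of 1500 to 3000 bases, where 69.6% to 73.0% of low values were whole within 0.1 fragments, against 20% by chance. Of the symbols, 23310 were found in GENCODE M21. Members, lists and tests were chosen with earlier results of these data known. Named genes are all members, genes overlapping them or within 50 kb of Abi3, the called genes of each pathway list or else the 2 with the smallest p, and the 5 most similar profiles of Abi3, Wasf2 and Nckap1; Ptprc, Mef2c, Ibsp, Mmp13, Actn3 and Myh4 among the markers and the opposite-strand pair C1qtnf1 and Gm11747 were singled out after their values were seen. The fit was tested on simulated data.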

Additional observations from a re-analysis of the deposited data

How the results depend on the processing

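The log2 difference of Abi3 was 3.57 to 4.94 over the 14 alternatives, a direction that the choice of the gene fixes. The 4.94 is on another scale, log2(FPKM + 0.1), and the highest value on the log2(FPKM + 1) scale was 4.75, without RR 16. The count of members called was 0 to 1 without 1 library (0 without FP 16) and 1 under each other alternative. Of the 122 alternative values of the members, 122 moved by less than 1 SD of the replicates, but most of them could not move further. Filter, trend and block settings leave the difference as it is, or leave the gene out. Dropping 1 of 3 libraries of a group cannot shift it by 1 such SD. Nothing is therefore read from that count. Of the 122 values, 14, in 5 members (Abi2, Wasf1, Wasf2, Brk1 and Nckap1), changed sign, so no direction is given for these 5. Genes called over the whole table, 143, were 83 without an intensity trend, 271 with the library number as a replicate block and 42 to 85 without 1 library; the split of higher to lower calls was 66 to 65 after quantile normalization, against 82 to 61. Actin pathway genes called, 0 of 89, were 1 of 89 after quantile normalization (Daam2), where 131 of all 14789 tested genes were called. With the replicate block they were 2 of 89 (Abi3bp and Tiam2), next to 271 of 14789. Nothing is read from these counts. Genes called for library number, 25, were 7 without an intensity trend, 13 after quantile normalization, 40 with library weights and 14 to 63 without 1 library. Deviations from the group means correlated across genes at r = 0.32, 0.18 and 0.09 between libraries of the same number (11, 14 and 16), each library's highest r being with its own number, a hint from the data and not the design. Under a stricter filter (mean of 5 FPKM), the median difference of all genes was 0.14 in place of 0.02, and 4 members (Abi2, Wasf1, Wasf3 and Cyfip1) were not tested. The causes of these changes were not tested. Depth limits low members most, since Wasf1 rests on 6.21 to 39.6 fragments a library.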
